A study of Mus musculus with 2 samples.

Results

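The Cxcr4 locus was described through the regions of H3K36me2, the dimethyl mark on histone H3, that lie around the gene in regulatory T (Treg) cells of mouse spleen. The window was the RefSeq gene body of Cxcr4 (gene 12767, chromosome 1, 128588199 to 128592299 in mm10, minus strand) with 100 kb on either side, 204101 bp in all (chr1:128488199-128692299). Every region that overlapped this window was taken, which gave 35 of the 94272 regions in the series, 24 of them wild-type and 11 from the knockout. The choice used the position of a region and not its value.

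Both groups were Treg cells of the C57BL/6 background, one wild type and the other with a Treg-restricted conditional deletion of Nsd2, which encodes an H3K36 methyltransferase. Each genotype was 1 library, so no difference between genotypes has a replicate error and none was tested. The labels do not state the Cre driver, the antibody, or the age and number of the animals. In bulk chromatin, a mark present in fewer cells and a weaker mark in each cell cannot be told apart.

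CXCR4 is the G protein-coupled receptor for the chemokine CXCL12, which bone marrow stroma and other niches secrete. On T cells it couples to inhibitory G proteins and directs migration and retention in the marrow, where Treg cells are a known resident population. H3K36me2 is laid down by NSD-family and ASH1L enzymes, typically as broad domains over intergenic DNA and gene bodies. Such domains can take in the distal elements that surround a short gene like Cxcr4.

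The libraries held 17158154 tags (wild type) and 14789700 tags (knockout), of which the authors' headers place 7.17% and 5.89% inside regions. Values below are the authors' normalised tag counts, in tags per 10000000 library tags, with 95% Poisson intervals that cover counting error only. The headers give a tag threshold for a peak of 500 bp of 13 tags in wild type and 12 in the knockout, which scale to 7.58 and 8.11 normalised tags. The authors' score of every region described here reached that threshold, while the normalised tag count of a region can be slightly lower. As a check of the labelled cell type, the 4 T cell markers Cd3d, Cd3e, Cd4 and Bcl11b all held regions in both libraries, with 49.2% and 48.8% of their pooled gene bodies inside regions. Of the 5 Treg markers 4 did so, at 15.0% and 16.6%, while Ctla4 held none in either library. Pooled cover was 2.08% and 1.30% for 4 B cell markers, 2 of which held a region in each library, with Ms4a1 among those at 0 in both libraries. It was 3.41% and 2.58% for 4 myeloid markers, 2 of which held a region in each library, with Cd14 and Lyz2 at 0. CD8 and NK markers, 2 of 4 with a wild-type region, had 4.86% and 0%, and erythroid markers, 1 of 3 with one, 3.65% and 0%. Pooled over all coding genes of 2000 bp and over, cover was 2.53% and 1.89%. Myeloid markers were above this in both libraries, and CD8 and NK and erythroid markers in wild type only. The B cell markers were below it in both. The Nsd2 body held no region in wild type and 1 of 500 bp in the knockout, which does not check the deletion because a list of mark regions does not show exons.

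The Cxcr4 promoter is shown because a wild-type region lies across the gene start and no knockout region does. The 250 bases before the start (RefSeq, GRCm38.p6, minus strand, chr1:128592300-128592549) are printed with the 75 bases that fall inside the wild-type region in capitals.
Cxcr4 promoter: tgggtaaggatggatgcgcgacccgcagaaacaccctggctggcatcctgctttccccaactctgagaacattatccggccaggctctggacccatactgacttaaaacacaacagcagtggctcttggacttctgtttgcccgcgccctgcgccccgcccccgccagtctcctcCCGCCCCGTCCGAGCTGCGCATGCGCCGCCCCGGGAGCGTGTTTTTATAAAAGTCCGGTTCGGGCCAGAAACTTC
Of these bases 61.2% are G or C, and 19 CG dinucleotides occur, against medians of 52.4% and 6 over 32851 RefSeq promoter stretches of the same length. The letters TGCGCA, a half-site of the transcription factor NRF1 that reads the same on both strands, occur 60 to 55 bases before the start, inside the wild-type region. They are found in 6.43% of the promoter stretches. In the printed bases TGCGCC follows directly, and a full NRF1 site was not searched for. The letters TATAAA occur once on each strand in overlapping positions, from 32 and 30 bases before the start, a motif found on either strand in 12.4% of stretches. GGGCGG, the GC box of SP-family factors, occurs 3 times on the reverse strand, from 95, 75 and 50 bases before the start, the last 2 of them inside the wild-type region. On either strand it is found in 32.7% of stretches. No match on either strand was found for the CCAAT box (the letters CCAAT), held by 33.8% of stretches. The same holds for the E box (the letters CACGTG), held by 6.02%, and for a core of the YY1 motif (the letters AAGATGG), held by 4.49%.

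At the promoter itself, wild-type cells had 1 region of 500 bp and knockout cells had none. That region (chromosome 1, 128591874 to 128592374) carried 9.03 normalised tags (5.11 to 14.8), or 15.5 tags, against a calling threshold of 13 tags in that library. It reached 425 bp into the gene, 10.4% of the 4101 bp body. The nearest knockout region began 6730 bp away. A second wild-type region without a knockout partner lay 1.26 to 1.91 kb upstream, with 9.91 normalised tags (5.77 to 15.9). Both wild-type regions were thus close to the limit of detection, and the lists give no tag count for the knockout where it has no region. Coding genes of 2000 bp and over with a region in one or both libraries numbered 11217, and 22.8% of them had a region in the wild-type body and none in the knockout, so this pattern at Cxcr4 is a common one.

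Over the whole window, cover by regions, their number and their tags were all lower in the knockout. Wild-type regions covered 23844 bp, 11.7% of the window, and knockout regions 12489 bp, 6.12%. The knockout therefore had 52.4% of the covered length, 45.8% of the number of regions (20.3 to 97.2, counting error) and 59.7% of the normalised tags (52.3 to 68.0). These came to 397 for wild type (367 to 427) and 237 for the knockout (213 to 263). Per covered kb the order was the other way, with 16.6 wild-type and 18.9 knockout normalised tags. Over the whole genome there were 54527 wild-type and 39745 knockout regions, and knockout cover was 74.4% of wild-type cover. The shallower knockout library had the higher scaled threshold for a peak. After wild-type 500 bp regions under that threshold (13.9 tags) were left out, the knockout had 58.5% of the covered length and 65.9% of the normalised tags. Longer wild-type regions were all kept, among them one of 1003 bp with a score of 13.0. The thresholds were thus matched only in part, and a match for longer regions was not tested.

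**Figure D1:**
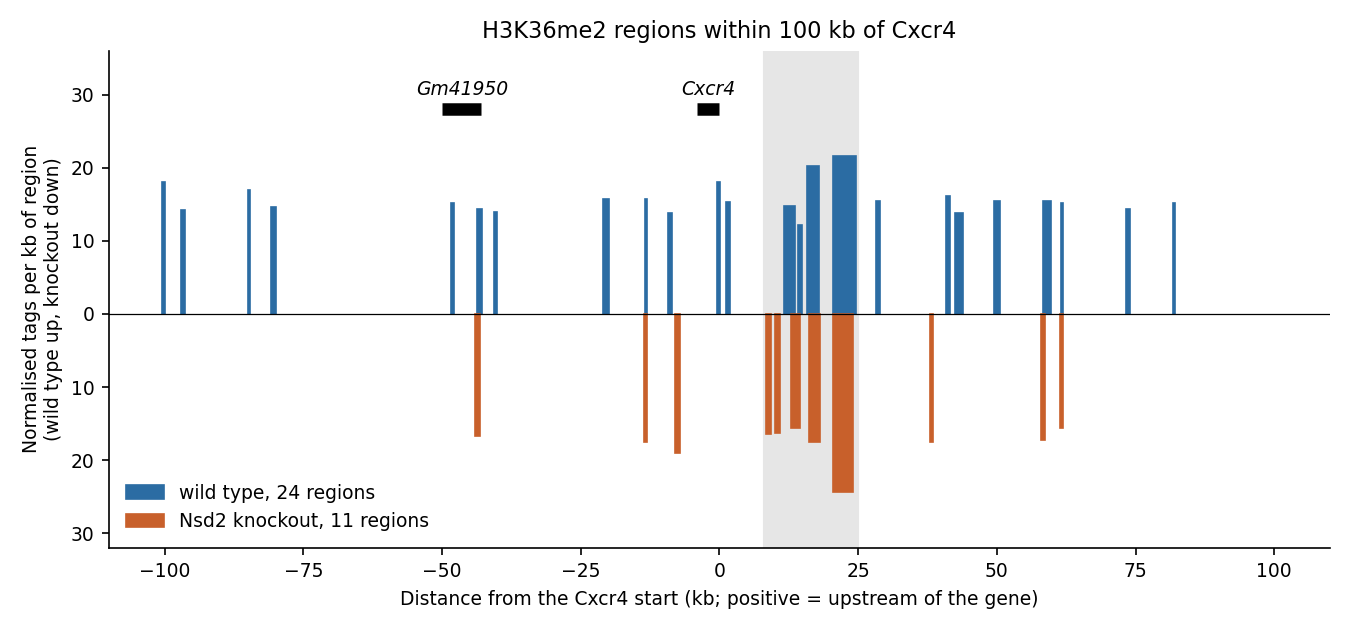
Each bar is one region, drawn at its true extent; the x axis is the distance from the Cxcr4 start in kb, positive upstream, and the bar's height is its normalised tags per kb, wild type upward and knockout downward. The grey band marks 8 to 25 kb upstream, where the widest regions of both libraries stand, and black bars mark Cxcr4 and the lncRNA gene Gm41950.

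The largest regions of both libraries lay in a cluster 8 to 25 kb upstream, where cover and tags differed little between the genotypes. These limits were set after the values were seen, and they leave out wild-type regions at 1.59 and 28.5 kb that had no knockout partner. In this stretch of 17 kb, 53.6% of base pairs were inside wild-type regions and 51.3% inside knockout regions, with 173 normalised tags (154 to 194) and 171 (151 to 194). The knockout thus had 99.0% of the wild-type tags there (83.4 to 118). Over 0 to 30 kb upstream, which takes in those 2 regions, the knockout had 83.1% of the wild-type cover and 88.1% of the tags (74.5 to 104). The stretch of 8 to 25 kb held 38.2% of the window's wild-type cover and 69.9% of its knockout cover.

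The largest region of each library was the far end of this cluster. In wild type it spanned 4187 bp (128612787 to 128616974) and had 90.3 normalised tags (76.7 to 106). In the knockout it spanned 3457 bp (128612829 to 128616286), lay wholly inside the wild-type one, and had 84.2 normalised tags (70.0 to 100.3). The knockout region was shorter at the end away from the gene and denser, at 24.4 against 21.6 normalised tags per kb. The authors' score, which is in tags per peak, was 19.5 for it and 33.0 for the wild-type region.

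The next region toward the gene had 43.4 normalised tags (34.1 to 54.5) over 2140 bp in wild type and 35.2 (26.3 to 46.1) over 2014 bp in the knockout, with 1867 bp in common. Beyond it, wild-type cells had a region of 2113 bp with 31.2 normalised tags and one of 671 bp with 8.16. A single knockout region of 1664 bp with 26.0 normalised tags bridged parts of both. The knockout also had regions of 763 bp and 828 bp, with 12.5 and 13.5 normalised tags, on the gene-facing side, where wild type had none. The edge of the cluster nearest to the gene was therefore 8.47 kb from the start in the knockout and 11.6 kb in wild type.

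Outside that cluster the knockout had much less than wild type. In the remaining 187101 bp of the window, wild-type regions covered 14733 bp and knockout regions 3763 bp, or 25.5%. The normalised tags were 223 (202 to 247) and 65.3 (52.9 to 79.7), a share of 29.2% (23.1 to 36.6). This part of the window was made up of scattered small regions, most of them near the calling threshold. The limits of the cluster were set after the values were seen, so the 25.5% and 29.2% depend on them. The interval does not cover that choice.

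On the downstream side, past the 3′ end of the gene, 100 kb held 10 wild-type regions over 6721 bp and 3 knockout regions over 2137 bp. They carried 101.7 (87.1 to 118) and 37.9 (28.6 to 49.2) normalised tags. The 3 knockout regions lay 7.16 to 44.1 kb from the start, and the farthest 4 of the wild-type ones 79.9 to 100.5 kb away, where no knockout region was called. One pair overlapped by 463 bp in the lncRNA gene Gm41950, with 13.4 wild-type (8.50 to 20.1) and 14.2 knockout normalised tags (8.79 to 21.7). Of the 7052 bp of Gm41950, wild-type regions took up 1298 bp and knockout regions 853 bp. A second pair, 13.2 kb downstream of the start, shared 454 bp, with 7.87 and 8.79 normalised tags. The other 8 wild-type regions on this side had 6.99 to 15.7 normalised tags and no knockout base. The remaining knockout region, 7.16 to 7.94 kb from the start with 14.9 normalised tags (9.32 to 22.5), lay 626 bp from a wild-type one. The snoRNA, snRNA and pseudogene loci of the window (Gm23902, LOC115487618 and Gm6170) held no region in either library.

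Farther upstream, from 30 to 100 kb, wild-type cover was 6201 bp in 7 regions and knockout cover 1626 bp in 3. The largest wild-type regions there had 21.0 (14.7 to 29.0), 19.8 (13.7 to 27.7) and 16.6 (11.1 to 23.9) normalised tags, at 59.0, 43.1 and 50.1 kb. The first overlapped a knockout region of 10.8 normalised tags (6.18 to 17.6) by 274 bp, and the other two had no knockout base. At 61.7 kb both libraries had a region of 500 bp, with 7.58 and 7.78 normalised tags and 432 bp in common. One knockout region, at 38.3 kb with 8.79 normalised tags, had no wild-type base. The wild-type regions at 41.2, 73.7 and 81.9 kb, of 7.58 to 10.5 normalised tags, had no knockout base.

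In 10 kb bins counted from the gene start, 16 of 21 bins had wild-type cover and 9 had knockout cover. Cover was lower in the knockout in 14 bins and higher in 2, the bins of 0 to 10 kb upstream (723 and 763 bp) and 30 to 40 kb upstream (0 and 500 bp). In 8 bins wild type alone had cover, and 4 bins had none in either library.

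**Figure D2:**
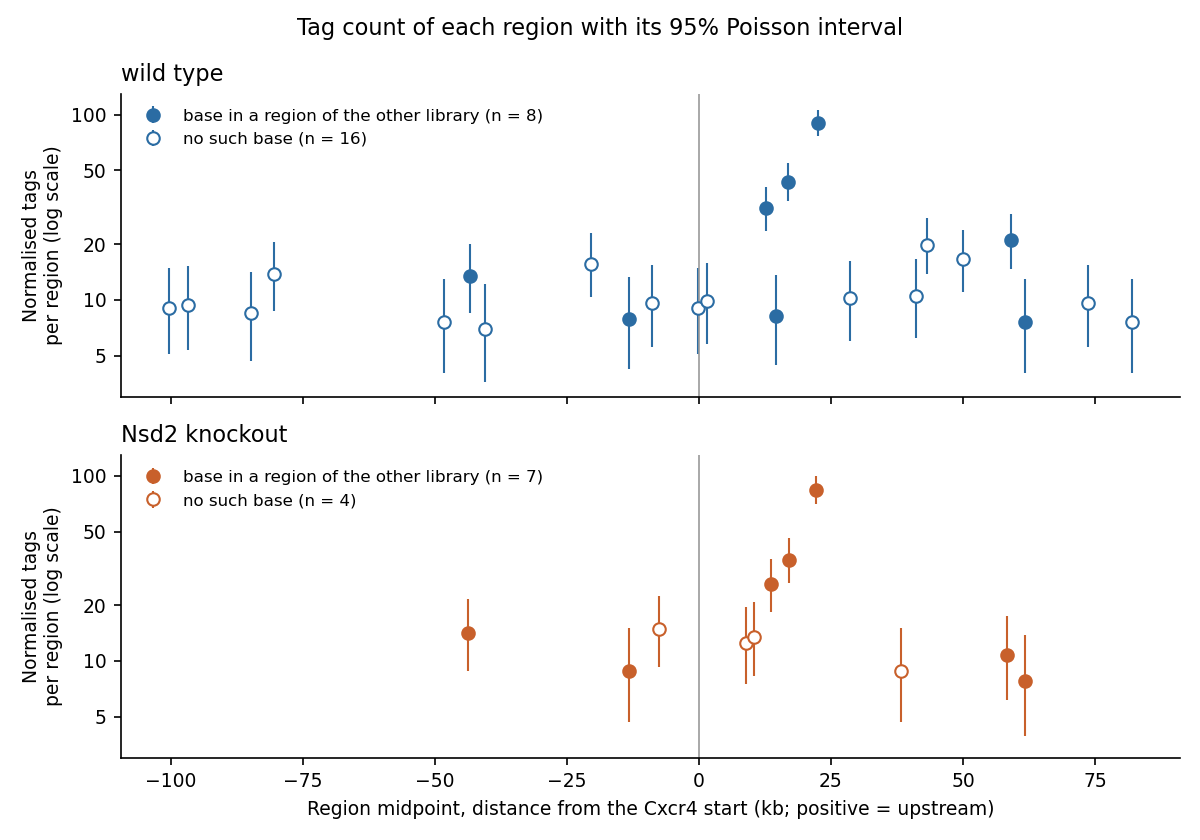
Normalised tags of each region (log scale) against the distance of its midpoint from the Cxcr4 start, with 95% Poisson intervals; filled points have at least 1 bp in a region of the other library. The 3 highest points of each library, at 26.0 to 90.3 normalised tags, stand between 12.6 and 22.6 kb upstream and are all filled.

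About as many regions of each library, 8 in wild type and 7 in the knockout, had a base in a region of the other. The 8 were 33.3% of the 24 wild-type regions (exact binomial 15.6 to 55.3), against 29.8% of all wild-type regions. The 7 were 63.6% of the 11 knockout regions (30.8 to 89.1), against 41.0% of all knockout regions. The shared share of wild-type regions was thus near that of the genome, and the genome's share for the knockout lay inside the interval.

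All 3 wild-type regions of 2 kb and over were shared, where 91.8% of such regions were shared genome-wide. Of the 4 from 1 kb to under 2 kb, 1 was (genome 62.0%), of the 9 between 500 bp and 1 kb, 2 were (33.8%), and of the 8 of 500 bp, 2 were (16.0%). In the window the wild-type share thus rose only in the longest class, which held 3 regions. Of the knockout regions, both of 2 kb and over were shared, as was the 1 from 1 kb to under 2 kb, 2 of 5 between 500 bp and 1 kb, and 2 of 3 of 500 bp. A longer region is more likely to meet a base of another by its length alone. The 16 unshared wild-type regions had 6.99 to 19.8 normalised tags, with a median of 9.62, and the 8 shared ones 7.58 to 90.3, with a median of 17.2. Per kb the medians were 15.2 and 15.3. Scores within 2 tags of the calling threshold were found in 17 of 24 wild-type and 8 of 11 knockout regions.

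Where regions overlapped, the knockout had from 51.6% to 112% of the wild-type normalised tags. These are 7 knockout regions set against the wild-type regions they met, with the 2 wild-type regions under the bridging knockout region summed, and all had to be called in both libraries. In 4 the knockout had fewer and in 3 more normalised tags, with a median of 93.2%. The counting interval left out 100% at 59.0 kb, where the knockout had 51.6% (26.7 to 95.3), and at the bridging region, where it had 66.2% (43.3 to 99.7). Per kb the knockout was higher in 6 of the 7. The knockout also had the higher scaled calling threshold, whose part in this was not tested. Base pairs in both lists came to 8084, which is 33.9% of wild-type and 64.7% of knockout cover in the window.

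Cxcr4 has no coding neighbour inside the window. The nearest coding gene downstream is Dars, an aspartyl-tRNA synthetase gene, 170.8 kb away, and the nearest upstream is Thsd7b, 680.891 kb away. Dars had 625 bp inside a wild-type region and none inside a knockout one, and Thsd7b had 500 bp in each library over its 946089 bp. Cxcr4 thus stands alone in a long stretch without other coding genes.

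The 2 sides of the gene differed in the wider neighbourhood. Between Cxcr4 and Dars, 7721 bp lay in wild-type and 2137 bp in knockout regions, or 27.7%. Between Cxcr4 and Thsd7b it was 35537 bp and 28681 bp, or 80.7%. From 100 to 250 kb upstream, limits set after the values were seen, cover was 18839 bp and 18329 bp, and the normalised tags were 293 (268 to 320) and 317 (289 to 348). The last region upstream of Cxcr4 ended 244.8 kb from the start in wild type and 240.0 kb in the knockout. No region was called in either library from there to Thsd7b, over 436 and 441 kb.

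In the 20 bins of 50 kb on each side of the start, the bin with the most cover was that from 0 to 50 kb upstream in both libraries, where wild type had 26.0% and knockout 18.5%. The next 3 in both lay between 100 and 250 kb upstream, in a different order. The last regions inside the window on each side, which lay 43.7 to 100.2 kb from the start, had 7.58 to 14.2 normalised tags. The first ones outside it, 105.2 to 234.2 kb away, had 8.11 to 10.2.

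**Figure D3:**
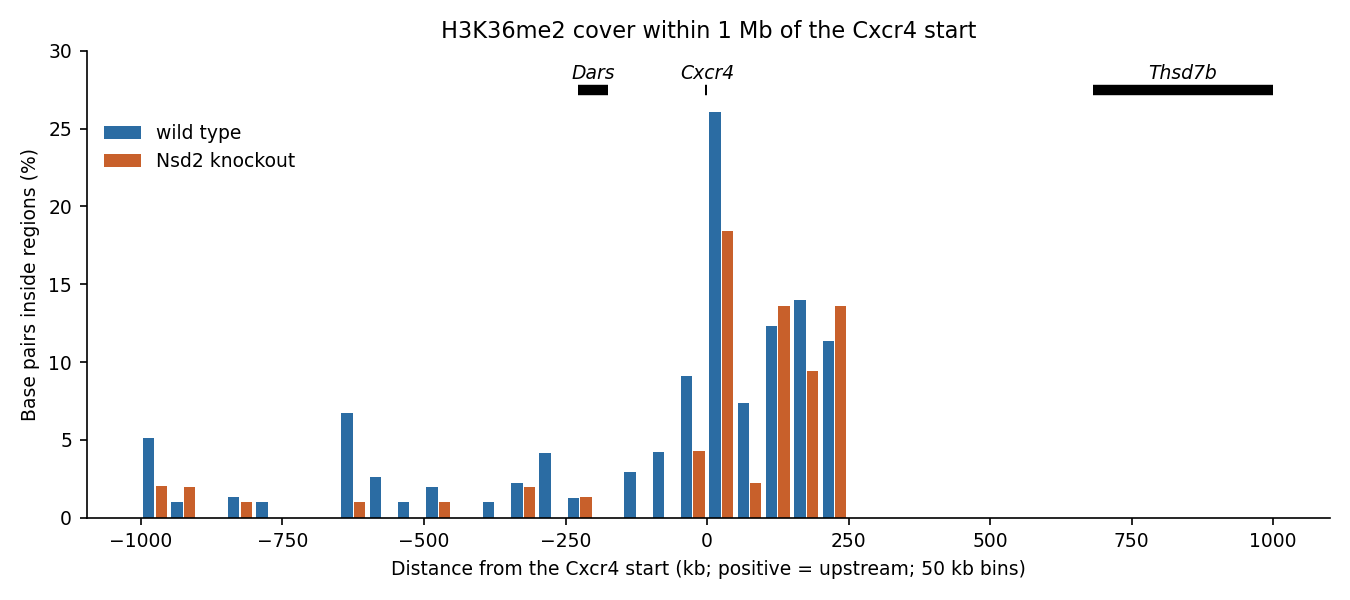
Percentage of base pairs inside regions in 50 kb bins to 1000 kb on either side of the Cxcr4 start (positive upstream), for wild type and knockout, with the bodies of Dars, Cxcr4 and Thsd7b in black. Both libraries are highest at 0 to 50 kb upstream, at 26.0% and 18.5%, and have no cover in any bin from 250 to 1000 kb upstream.

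The same window was drawn around each coding gene to give the background. A region in either library was found in 18455 windows, many of which overlap. In 39.7% of them covered length was lower in the knockout by 1.5 times or more, and in 12.3% higher by as much, and the Cxcr4 window was among the former. The median window had 76.4% of its wild-type cover in the knockout, with quartiles at 47.9% and 104%, so the 52.4% at Cxcr4 lay within the middle 50% of windows. Its wild-type cover of 11.7% was above that of 94.8% of windows and its knockout cover of 6.12% above that of 84.7%, where the median window had 2.11% and 1.48%. Among the 2376 windows with wild-type cover within 1.5 times that of Cxcr4, 23.1% were lower by 1.5 times or more. Their median was 87.0%, with quartiles at 68.5% and 105%, and 9.81% of them had a lower percentage than Cxcr4. These windows were chosen by their wild-type cover, which the percentage also uses, so this is a description.

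**Figure D4:**
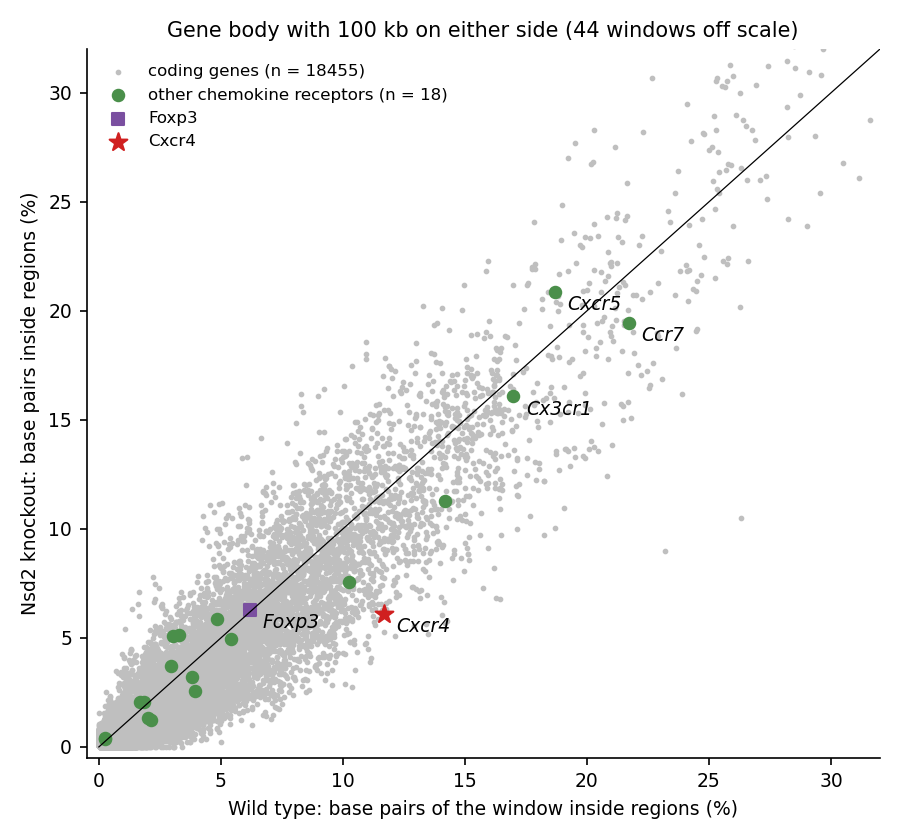
Percentage of base pairs inside regions for each coding gene's body with 100 kb on either side, wild type on the x axis and knockout on the y axis; the line marks equal cover, and 44 of 18455 windows lie off scale. Cxcr4, at 11.7% and 6.12%, lies below the line, toward the lower side of the points at that wild-type level, while Ccr7, Cx3cr1 and Foxp3 lie close to it.

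The coding genes whose windows were most like that of Cxcr4, by the distance between pairs of covered shares over these 2 libraries and among 11584 windows of 180 to 230 kb, were Trp53i11, Ikbke, Tmem179, Tdgf1 and A130010J15Rik. Their distances ran from 0.187 to 0.858 percentage points. Trp53i11 (chromosome 2) had 11.7% and 6.30%, and Ikbke, an IKK-related kinase gene elsewhere on chromosome 1, 11.8% and 6.33%. The Ikbke window takes in the whole body of Rassf5, a pathway gene described below. That body holds 17190 of the window's 26499 covered bp in wild type and 9763 of 14252 in the knockout. Tmem179 had 11.4% and 5.88%, Tdgf1, an EGF-CFC co-receptor gene, 11.1% and 6.55%, and A130010J15Rik 11.7% and 5.26%. With 2 libraries such a likeness holds 2 values and says nothing about position within the window.

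Other chemokine receptor genes, which steer T cells to follicles, lymph nodes, gut and inflamed tissue, showed both directions. Of 18 such windows, 11 of which overlap another of the set, 9 had less and 9 more cover in the knockout, where 12353 of all 18455 coding gene windows had less and 5705 more. By 1.5 times or more, 3 of the 18 were lower and 4 higher, beside 39.7% and 12.3% of all windows. Their median was 103% of the wild-type cover, with a range from 58.6% at Ccr9 to 167% at Ccr3, against 52.4% at Cxcr4. By normalised tags Ccr9 was lower, at 52.3% against 59.7% for Cxcr4, and Cxcr6 was slightly higher than Cxcr4, at 60.1%. The windows of Ccr9 and Cxcr6 overlap and held only 76.9 and 67.0 wild-type normalised tags. The difference between Cxcr4 and any other receptor window has no replicate error.

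The chemokine receptor window with the most wild-type cover was that of Ccr7, the lymph node homing receptor, with 45831 bp (wild type) and 41040 bp (knockout), or 89.5%. That of Cxcr5, the follicle homing receptor, had 40100 and 44824 bp, or 112%, and that of Cx3cr1, the fractalkine receptor, 37304 and 35328 bp, or 94.7%. Cover of the gene bodies themselves varied among these genes. The body of Ccr7 was covered to 67.9% and 76.8%, that of Cxcr5 to 52.1% and 59.1%, and that of Cx3cr1 to 19.5% and 18.9%, against 10.4% and 0% for Cxcr4. The window of Foxp3, the gene of the Treg-defining transcription factor, had 13316 and 13568 bp, or 102%.

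Genes of the CXCL12 and CXCR4 pathway were described by the share of the gene body inside regions. All 41 listed genes were found in the annotation, and 35 of them, each 2000 bp or longer, held a region in one or both libraries. In 21 of the 35, or 60.0%, the share was smaller in the knockout, against 59.7% of all 11217 measured coding genes. The median difference was -1.42 percentage points, against -0.69 for all. By 20 points or more, 1 member was lower and 0 were higher, where 1.71% and 1.93% of all measured genes were. Pooled, wild-type regions covered 6.21% and knockout regions 5.02% of the list's bodies, against 2.53% and 1.89% over all coding genes of that length.

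At the ligand and receptor level, Cxcl12, which stromal cells rather than T cells express, held no region in either library. Ackr3, the decoy receptor that scavenges CXCL12, had a region in the knockout alone, which took up 500 bp or 4.26% of its body. Cd74, the invariant chain of MHC class II and a receptor for the cytokine MIF, which also binds CXCR4, had the largest difference of the list. Wild-type regions took up 43.2% of its body and knockout regions 8.66%, with 56.2 and 14.0 normalised tags. Mif itself, whose body of 925 bp left it out of the 35 measured genes, had 66.7% in wild type and 100% in the knockout, on 8.91 and 13.7 normalised tags. Cd74 is strongly expressed in B cells, whose 4 markers had 2.08% and 1.30% cover as given above. Their part in the result was not tested.

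Downstream of the receptor, Gnai2, the inhibitory G protein subunit through which lymphocyte chemokine receptors mainly signal, was covered to 45.7% and 38.5%. Rac2, the haematopoietic GTPase that drives actin assembly, had 44.6% and 58.9%, the largest difference toward the knockout among the genes of 2000 bp and over, with 111 and 149 normalised tags. Arrb2, a beta-arrestin that takes the active receptor off the membrane, had 5.99% and 17.8%, on 7.29 and 23.7 normalised tags. Grk2, a kinase that phosphorylates active receptors, had 39.9% and 43.0%. Rassf5, the RAPL adaptor that links chemokine signals to integrin adhesion, had 17190 and 9763 bp of its 68769 bp body covered, on 288 and 182 normalised tags.

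Among regulators of T cell trafficking in the list, Klf2, a transcription factor that maintains S1pr1, had 38.9% and 19.5% of its 2593 bp body covered. S1pr1, the receptor for exit from lymphoid organs, had 41.3% and 31.7%. Foxo1, a transcription factor above Klf2, had 19.3% and 19.5%. Rgs1 and Rgs16, which switch off G protein signals after chemokine stimulation, held no region in either library. Among these regulators, Klf2 and S1pr1 thus had a smaller share in the knockout and Foxo1 a nearly equal one. Differences went both ways among the named genes at the ligand and receptor level and downstream of the receptor.

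**Figure D5:**
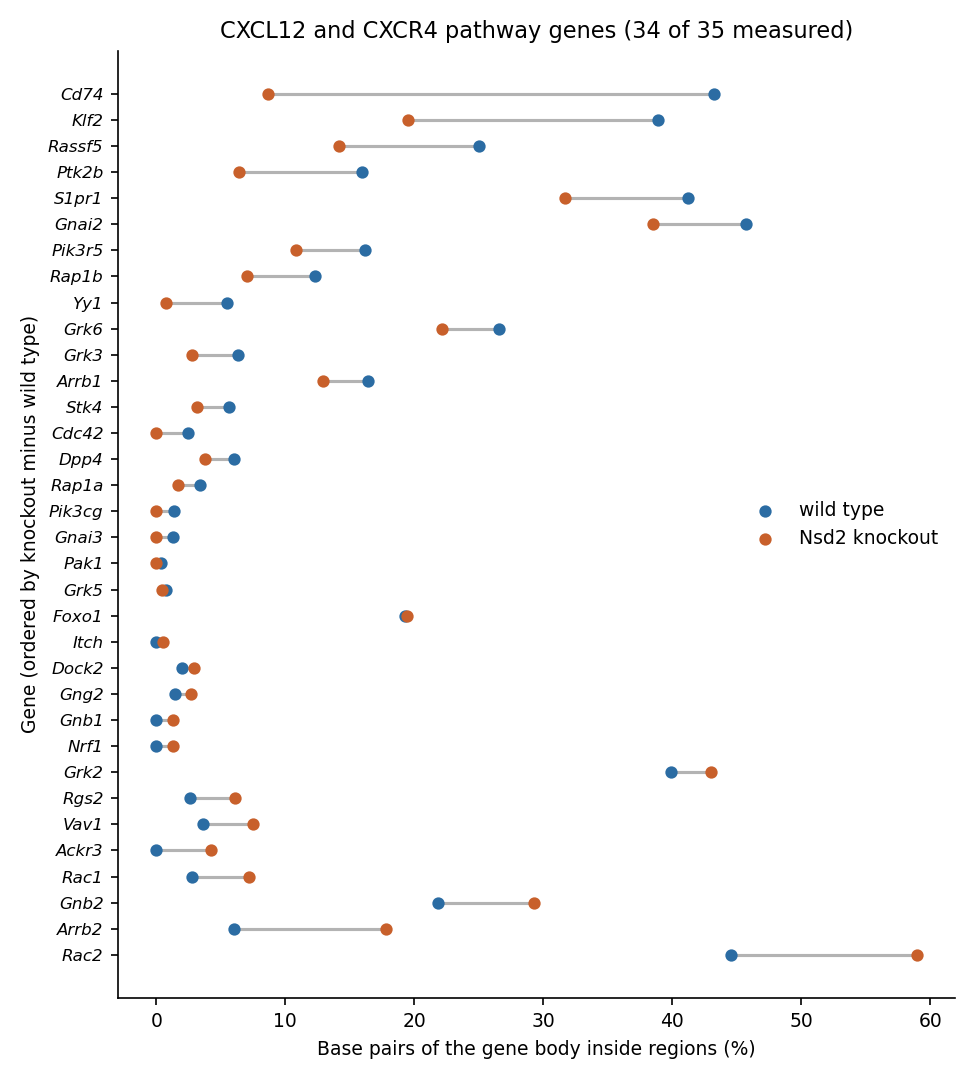
Percentage of the gene body inside regions in wild type and knockout for 34 of the 35 measured genes of the CXCL12 and CXCR4 pathway, ordered from the largest difference toward wild type (Cd74, 43.2% and 8.66%) to the largest toward the knockout (Rac2, 44.6% and 58.9%). In 20 of the genes drawn the knockout point lies to the left of the wild-type point.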

How the data were processed

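The authors called regions with HOMER findPeaks in histone style on each library alone, without a control library, per the file headers. Trim Galore, Bowtie2, Picard and deepTools, and the mm10 build, are named in the submitters' processing notes without versions. The deposited signal is a normalised tag count per region, scaled to 10000000 tags per library. The deposited score of a region was used to describe and filter regions, and the authors' clonal fold ratio was not used. Because totals were made equal, a change in the mark over the whole genome could not be seen.

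Cover and tags inside windows were computed with numpy 2.4.6, scipy 1.17.1 and pandas 2.3.3 under Python 3.11.15, and plots with matplotlib 3.10.9. Tags of a region were spread evenly over its length, and at least 1 bp counted as shared. Ratios of tags and of regions have exact conditional 95% intervals, and shares exact Clopper-Pearson ones. Tags are PCR reads without molecular identifiers, so intervals cover counting error only. Genes and promoters came from RefSeq tables of GRCm38.p6, the assembly of mm10. No genome sequence was used, so regions away from promoters are shown without bases.

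The window, lists, alternatives and rule for named genes were chosen with earlier results of these data known. The rule took Cxcr4, genes in or next to the window, the 5 pathway genes with the largest differences with Cxcl12 and Ackr3, the 3 receptor windows with most wild-type cover, and the 5 windows most like Cxcr4. Gnai2, Grk2, S1pr1, Foxo1, Rgs1, Rgs16, Mif, Ccr3, Ccr9 and Cxcr6 were added after their values were seen. The code was tested on simulated data, in which 200 of 200 windows emptied in a copy of the wild-type list, and 0 of 19661 untouched ones, were counted as lower. Both outcomes followed from how the windows were made, so this checked the counting only, and partial differences were not scored. Counts over the gene lists include genes that are not reported here by name.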

Additional observations from a re-analysis of the deposited data

How the results depend on the processing

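All 27 alternatives for cover, tags and number of regions used the same 2 libraries, so they were not independent checks. Under each, the knockout stayed below wild type in the Cxcr4 window. Its share of the normalised tags stayed at 59.7% on merging regions and on counting edge regions whole. Neither could change it, because merging sums the tags and no region crossed a window edge. Its share of the normalised tags became 72.6% with 50 kb and 70.5% with 200 kb on either side, 73.9% for regions of at least 10 normalised tags, and 71.7% for the 50% of regions with the higher score. Its share of covered length became 50.8% after merging regions within 1 kb and 70.4% after division by the genome-wide ratio of covered length (74.4%). Added after the data were seen, leaving out the largest region of each library gave 45.9% of cover and 49.8% of tags, and leaving out 8 to 25 kb upstream gave 25.5% and 29.2%. The number of regions gave 47.6 to 72.7%, and the shared share of wild-type regions 20.8 to 45.5%, all inside their counting intervals. At 2 times instead of 1.5, 4833 coding gene windows rather than 7326 were lower in the knockout. No paired analysis was possible because each genotype had 1 library. At this depth a region of 500 bp rests on about 13 tags, and what lies below the calling threshold is not given by the lists.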
